A study of Mus musculus with 2 samples.

Results

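The 48 genes described here encode the ATP-binding cassette (ABC) transporters of the mouse, taken as every protein-coding gene on chromosomes 1 to 19 whose symbol is Abc, a letter from a to g and a number, out of 20556 protein-coding genes on these chromosomes. H3K27ac, the acetylation of histone H3 at lysine 27 found at promoters and enhancers in use, was profiled with ChIP-seq in MA9 leukaemia cells, an acute myeloid leukaemia of mice driven by the MLL-AF9 fusion. One group was Gata2 f/f (1 library), whose floxed Gata2 alleles are intact, and the other was Gata2 KO (1 library), labelled Gata2 -/-. Leukaemia cells from the marrow of primary animals had been transduced with either Cre or the MIT control, sorted by GFP and tdTomato, and cultured for 7 to 9 days with IL-3, IL-6 at 10 ng/mL and SCF at 20 ng/mL. Both groups therefore share the fusion, the transduction and the cytokines, and differ in the vector as well as in the labelled Gata2 genotype. The number of animals behind each library is not given in the sources used here.

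ABC transporters are membrane pumps that bind and hydrolyse ATP to move a substrate across a membrane, and each subfamily has its own typical cargo. Several ABCB, ABCC and ABCG proteins export drugs and their conjugates and are known from drug resistance in leukaemia, while many ABCA, ABCD and ABCG proteins move sterols, phospholipids or fatty acids. ABCE and ABCF proteins keep the ATP-binding domains but have no membrane part and act on ribosomes.

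With 1 library per genotype, no test between genotypes could be made, and every difference below compares these libraries and not the conditions. A gene was called marked where a peak lay within 1000 bp of either gene end, because the gene table gives no strand. Locus coverage is the percent of bases of the gene and 25 kb on both sides that lay under peaks. The f/f list held 34313 peaks with a median -log10 p of 12.2, and the KO list 37302 with a median of 9.41, so the KO list was the longer one, with the lower median. The read number is not given in the sources used here, and the part that depth or enrichment has in any difference was not tested. The labelled target gene, Gata2, was marked in both lists, with a locus coverage of 15.4% in f/f against 8.41% in KO, which does not check the deletion. The f/f list held 0 peaks on chromosome Y and the KO list 4, and the starts of 6 chromosomes were blank in 1 of the lists, but 0 of the 48 genes lay there. Of markers of MA9 and myeloid progenitor cells, 8 of 8 were marked in f/f and 5 of 8 in KO (not Meis1, Mpo and Hoxa9, for which KO had a peak within 5000 bp and a coverage of 10.5%, 4.42% and 39.2%). In each list 1 of 4 B cell, 1 of 4 T and NK cell, 1 of 3 erythroid and 0 of 5 stromal and endothelial markers were marked. Among these, Ncr1 (T and NK cell) and Col1a2 (stromal) lie in chromosome starts without f/f peaks, so f/f could not mark them. The erythroid marker Hbb-b1 was left out, as it is listed below 3 Mb. In a bulk sample, fewer cells with the mark and less of it per cell cannot be told apart.

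Of the 48 genes, 27 were marked in f/f, against 52.2% of all genes, and 26 in KO, against 52.1%. Marked in both were 25 genes, against 49.3% of all genes, and marked in neither were 20, against 45.1%. Marked in 1 library alone meant that the second list was blank out to 5000 bp from both ends. That held for Abca1 in f/f, against 1.89% of all genes, and for Abcc3 in KO, against 1.66%. Neither list had any peak over 5 of the genes and their flanks (Abca12, Abca15, Abca16, Abcb5 and Abcb11), against 22.9% of all genes. Median locus coverage was 3.32% in f/f against 3.79% in KO, beside 3.32% and 3.50% over all genes. It was higher in KO for 20 genes (42.1% of all genes), lower for 23 (34.9% of all genes) and equal for 5, although the order of the first 2 counts turned with a -log10 q of at least 5, with 50 kb flanks and with 1 gene per shared locus. The median difference, as KO less f/f, was 0 percentage points, as over all genes. Single genes ranged from -3.66 to 4.72 points. A difference was called when it came to at least 2 points and at least 1.5-fold. Called higher in KO were 2 genes, Abcc5 and Abcg3 (6.29% of all genes), and called lower were 0 (3.40% of all genes). The ABC genes are long, with a median of 64.8 kb against 17.6 kb over all genes.

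**Figure D1:**
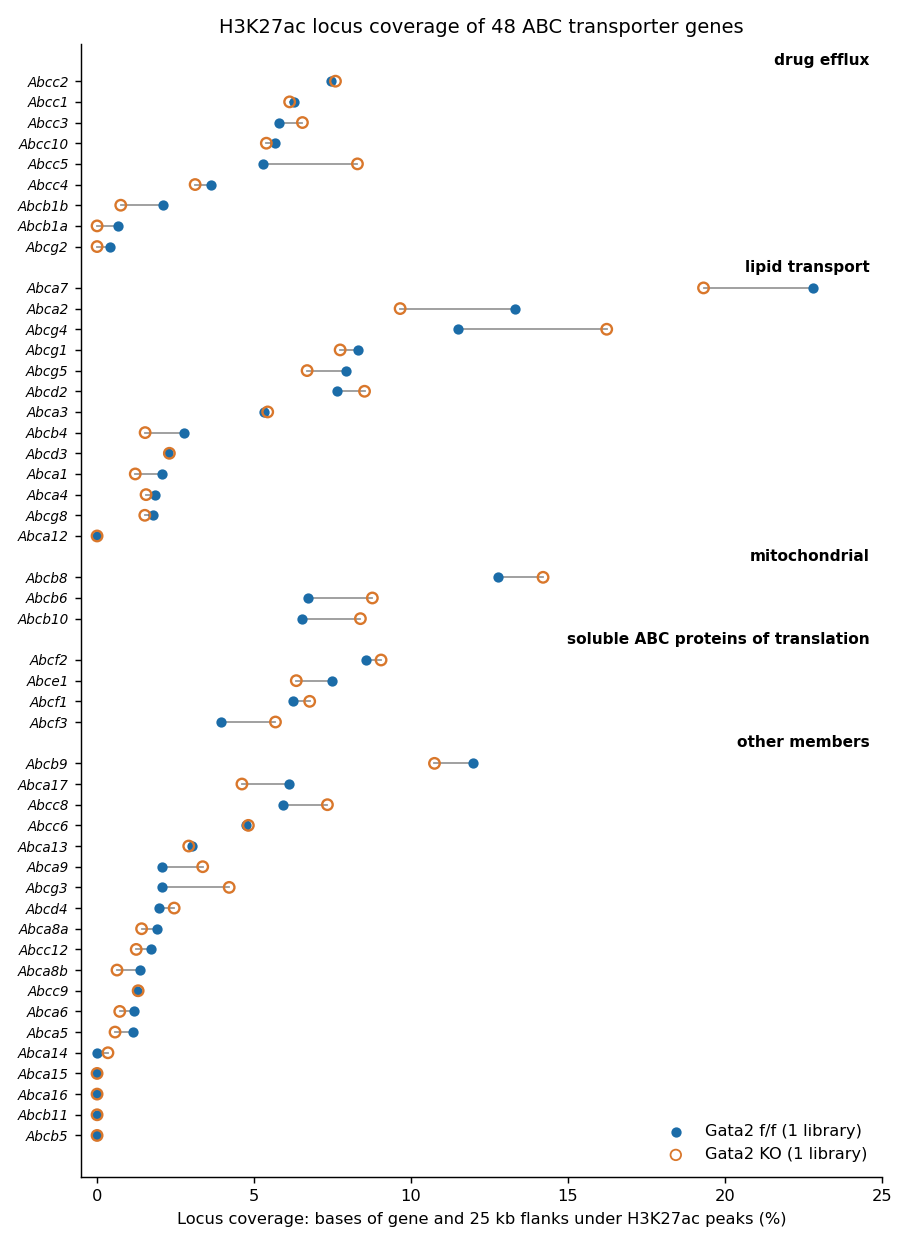
Locus coverage (percent of bases of the gene and 25 kb flanks under H3K27ac peaks, x axis) of the 48 ABC genes (rows, grouped by role), in the f/f library (filled points) and the KO library (open points), 1 library each and so without error bars. Abca7 stood highest in both libraries at 22.8% and 19.3%, and Abcg4 and Abca2 were the furthest apart between libraries, at 11.5% and 16.2% and at 13.3% and 9.65%.

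The locus coverage of the 9 drug efflux genes ranged from 0.399% to 7.44% in f/f and from 0% to 8.29% in KO. Of them 4 were marked in f/f, 5 in KO and 4 in both, beside 52.2%, 52.1% and 49.3% of all genes. Coverage was lower in KO for 6 and higher for 3, with a median difference of -0.29 points and medians of 5.29% and 5.39%. Together they held 41 peaks in each list, of which 32 in each list overlapped a peak of the other. That is 78.0% in each list, beside 83.9% of all f/f peaks and 77.3% of all KO peaks on these chromosomes.

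Abcb1a and Abcb1b encode the mouse forms of P-glycoprotein, the pump that exports anthracyclines and vinca alkaloids, whose work is done in humans by the ABCB1 protein. Both genes lie on the plus strand of chromosome 5, Abcb1a at chr5:8567091-8748575 and Abcb1b at chr5:8798147-8866314 (GRCm38.p6, the build of mm10), and Abcb4 follows at chr5:8893614-8959226. Their promoters, from RefSeq for GRCm38.p6, are shown because the genes are near copies in function but only Abcb1b carried acetylation at its start. Each sequence here runs from 250 bases before to 50 after the annotated start, 5′ to 3′ on the gene's strand, and capitals mark GATAA (the core of a GATA site), CCAAT (the CCAAT box) and GGGCGG (the GC box), each on either strand. The windows are chr5:8566841-8567140 (plus strand) for Abcb1a and chr5:8797897-8798196 (plus strand) for Abcb1b.
Abcb1a: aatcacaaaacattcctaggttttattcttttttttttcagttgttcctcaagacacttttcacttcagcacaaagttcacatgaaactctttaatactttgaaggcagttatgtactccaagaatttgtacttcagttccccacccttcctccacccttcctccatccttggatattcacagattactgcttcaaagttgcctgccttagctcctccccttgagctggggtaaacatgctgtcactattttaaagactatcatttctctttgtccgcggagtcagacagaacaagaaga
Abcb1b: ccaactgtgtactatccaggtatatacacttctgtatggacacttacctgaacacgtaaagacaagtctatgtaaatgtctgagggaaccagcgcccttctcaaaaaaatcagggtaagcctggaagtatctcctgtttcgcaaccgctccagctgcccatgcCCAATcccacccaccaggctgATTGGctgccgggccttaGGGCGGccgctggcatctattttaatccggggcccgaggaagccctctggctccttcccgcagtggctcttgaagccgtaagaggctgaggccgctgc
The Abcb1a window held 0 of these motifs, with 40.3% G + C and 2 CpG. The Abcb1b window held 2 CCAAT and 1 GGGCGG, with 55% G + C and 12 CpG. A match is a description of the letters and not of binding.

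Abcb1a had no peak at its start in either list. Its locus coverage was 0.67% in f/f against 0% in KO. The f/f list had 2 peaks inside the gene, and the KO list had 0. The first of them, chr5:8622198-8623117 (920 bp, 7.52-fold over background by the authors' value, -log10 p of 28.3), lay 55.1 kb into Abcb1a and at the upper end of Rundc3b, a gene that overlaps Abcb1a (chr5:8490336-8623084). It therefore cannot be assigned to Abcb1a. It was at or above the f/f median -log10 p and overlapped no KO peak, as did 1 of 153 f/f peaks over the 48 loci (0.654%) and 1.2% of all f/f peaks on these chromosomes. The other, chr5:8660084-8660713 (630 bp, -log10 p of 6.15), was among the weaker part of the f/f list.

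Abcb1b was marked at its start in both lists. The f/f peak, chr5:8797954-8799047, was 1094 bp wide, and the KO peak, chr5:8798055-8798945, was 891 bp wide, and both contain the annotated start and stand above their own list's median with -log10 p values of 67.7 and 19.4. Locus coverage was 2.11% in f/f against 0.754% in KO. The f/f list had a further peak of 1401 bp inside the gene, chr5:8806632-8808032, with a -log10 p of 7.00, below its list's median. Over Abcb1a, Abcb1b and Abcb4 and their flanks, which share bases, f/f had 8 peaks and KO 4. The 4 KO peaks all overlapped f/f peaks, and 4 of the f/f peaks overlapped KO peaks, beside 77.3% of all KO and 83.9% of all f/f peaks. Each of the 3 genes had the lower coverage in KO under every threshold and flank run, with Abcb1a between -0.77 and -0.40 points and Abcb1b between -1.82 and -1.21. KO had 0 peaks over Abcb1a and its 25 kb flanks. The sign there was thus bound to hold under any threshold that left an f/f peak. With a -log10 q of at least 5 only the peak at Rundc3b was left, which cannot be assigned to Abcb1a.

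**Figure D2:**
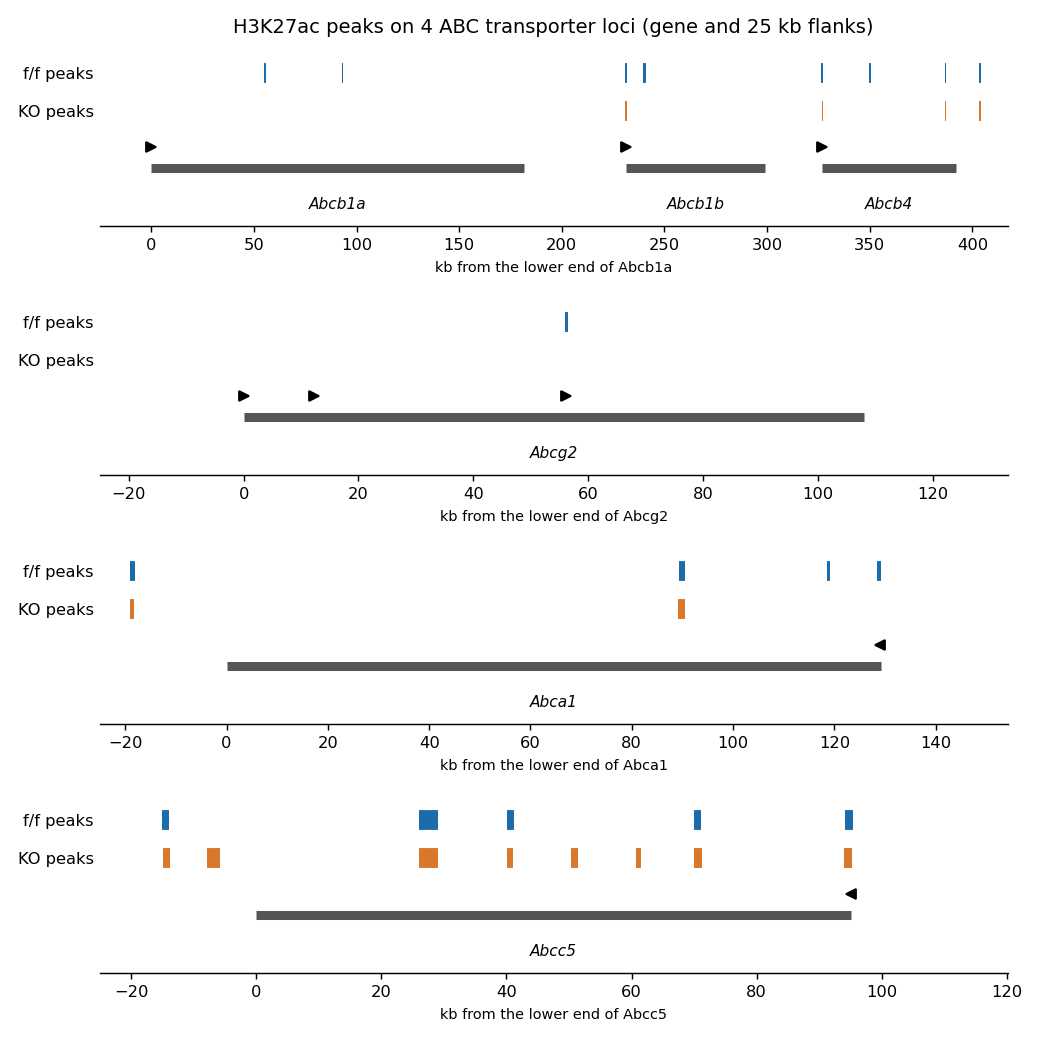
H3K27ac peaks of the f/f list (upper rows) and the KO list (lower rows) over the Abcb1a, Abcb1b and Abcb4 cluster, Abcg2, Abca1 and Abcc5, drawn to scale in kb from the lower gene end with 25 kb flanks; grey bars are genes and arrowheads annotated starts. KO had 0 peaks over Abcb1a and Abcg2, and 8 over Abcc5 against 5 in f/f.

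Abcg2, the breast cancer resistance protein, exports mitoxantrone, topotecan and porphyrins and gives blood stem cells their dye efflux. It lies at chr6:58584491-58692451 and was marked at a gene end in neither list. Locus coverage was 0.399% in f/f against 0% in KO. The f/f coverage was 1 peak, chr6:58640350-58640980 (631 bp, 4.31-fold, -log10 p of 10.4, under the median of its list), and the KO list had 0 peaks in the gene and flanks. That peak lies over the third of 3 annotated starts (58640546), which is inside the gene, and the gene-end window misses it. The promoter of this start, chr6:58640296-58640595 (plus strand), is shown because it was under a peak in f/f only.
Abcg2: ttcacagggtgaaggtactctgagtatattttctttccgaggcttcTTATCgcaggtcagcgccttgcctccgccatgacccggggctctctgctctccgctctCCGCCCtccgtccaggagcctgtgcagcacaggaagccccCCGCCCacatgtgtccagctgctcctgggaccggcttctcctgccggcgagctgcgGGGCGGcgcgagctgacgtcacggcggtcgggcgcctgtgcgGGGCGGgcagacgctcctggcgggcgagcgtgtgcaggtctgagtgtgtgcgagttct
It held 1 GATAA and 4 GGGCGG, with 67% G + C and 28 CpG.

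The ABCC drug pumps carried more acetylation. Abcc1, which exports glutathione conjugates and leukotriene C4, had a coverage of 6.26% in f/f against 6.13% in KO and was marked in both. Abcc10, which exports taxanes, had 5.68% and 5.39% and was marked in both. Abcc2, which secretes conjugates into bile, had 7.44% and 7.59% and was marked at no gene end in either list. Its 4 peaks inside the gene were shared by the lists. Abcc4, which exports cyclic nucleotides and nucleotide analogues, had 3.64% in f/f against 3.12% in KO, with 10 and 8 peaks. It was not marked at a gene end, but 1 of its annotated starts (118706219) was under a peak in both lists. For each of these 4 genes the libraries differed by less than 1.5-fold, and for Abcc1, Abcc2 and Abcc10 the sign turned under other thresholds or flanks.

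Abcc3, which exports bile acids and glucuronides, was the only ABC gene marked in KO alone. It lies at chr11:94343295-94393017. Coverage was 5.78% in f/f against 6.54% in KO. The KO peak at its upper end, chr11:94392400-94393001, was 602 bp wide with a -log10 p of 4.68, below the KO median, and f/f had none out to 5000 bp. Both lists shared peaks inside the gene at 26.9 and 42.4 kb from the lower end in f/f, and flank peaks at the ends of Luc7l3 and Ankrd40. The gene has no entry in the promoter table, so which end is the start was not analysed here. With a -log10 q of at least 5, or a fold of at least 3, the gene was no longer marked in KO alone, and the coverage difference turned from 0.76 to -0.23 points.

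Abcc5, which exports cyclic nucleotides and nucleotide analogues, had the largest coverage difference of the drug pumps. It lies at chr16:20331303-20426428. Coverage was 5.29% in f/f against 8.29% in KO, 3 points apart and so called different. Its start was marked in both lists, by peaks of 1364 bp in f/f against 1414 bp in KO. All 5 f/f peaks overlapped KO peaks, and KO had 3 more. Of these, chr16:20391962-20392800 (839 bp, -log10 p of 11.8) was above the KO median and lay inside the gene, 60.7 kb from its lower end. The other two were a peak of 1130 bp inside the gene and one of 2104 bp at the end of Cyp2ab1. The call ended with a -log10 q of at least 5 or a fold of at least 3, where the difference was 2.12 points.

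Of the 13 lipid transport genes 9 were marked in f/f and 7 in KO, with 7 in both. Coverage was lower in KO for 8, higher for 4 and equal for Abca12, with a median difference of -0.28 points and medians of 5.31% and 5.43%. In f/f 69.2% of them were marked, against 44.4% of the drug efflux genes and 52.2% of all genes. In KO it was 53.8% against 55.6%, beside 52.1% of all genes. These shares depend on the gene-end window. It misses annotated starts under peaks inside the drug efflux genes Abcg2 (f/f) and Abcc4 (both lists). Of the lipid genes, it misses the KO peak near Abcg5. The median differences of the roles, -0.28 points for the lipid genes and -0.29 for drug efflux, moved apart with other settings, to -0.78 and -0.29 with equal numbers of peaks, -1.06 and -0.40 with a fold of at least 3, and -0.88 and -0.49 with 10 kb flanks. The difference between the roles was not tested. Of 44 f/f peaks over the lipid genes, 41 overlapped a KO peak, and of 48 KO peaks, 43 overlapped an f/f peak. That is 93.2% and 89.6%, beside 83.9% of all f/f and 77.3% of all KO peaks on these chromosomes. The 8 unshared peaks were all below their list's median -log10 p. Few unshared peaks on these chromosomes reached it, 404 of 5417 in f/f and 769 of 8290 in KO.

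Abca1, which loads cholesterol and phospholipid onto apolipoprotein A-I, was the only ABC gene marked in f/f alone. It lies on the minus strand at chr4:53030789-53159988. Locus coverage was 2.06% in f/f against 1.22% in KO. The f/f peak at its start, chr4:53159197-53160006, was 810 bp wide with a 3.05-fold enrichment and a -log10 p of 5.36, under the median of its list. A second peak of f/f only, of 504 bp, lay 10.1 kb inside the gene from that end. Requiring a -log10 q of 5 or more removed the peak at the start, so that Abca1 was no longer marked in f/f alone, and its coverage difference went from -0.84 to -0.11 points. Both lists had an intronic or exonic peak, not resolved by the gene table, at chr4:53120063-53121357 in f/f (1295 bp, and 1302 bp in KO), and a peak at the end of Nipsnap3b. The promoter, chr4:53159846-53160145 (minus strand), is shown because this start was under a peak in f/f only.
Abca1: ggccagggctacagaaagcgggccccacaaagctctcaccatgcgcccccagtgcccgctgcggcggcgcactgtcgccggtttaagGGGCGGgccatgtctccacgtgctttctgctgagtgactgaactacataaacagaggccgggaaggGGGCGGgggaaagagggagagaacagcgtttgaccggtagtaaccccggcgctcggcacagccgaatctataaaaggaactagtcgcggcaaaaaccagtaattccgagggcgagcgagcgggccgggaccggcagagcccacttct
It held 2 GGGCGG and 0 GATAA, with 62.7% G + C and 26 CpG.

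Abcg1, which passes cholesterol to high-density lipoprotein and is abundant in macrophages, had a coverage of 8.32% in f/f against 7.74% in KO. Its lower end was marked in both lists, by 1 peak of 3685 bp in f/f and, over the same stretch, by peaks of 1141 and 580 bp in KO. Requiring a -log10 q of 5 or more removed the KO peak at the end and left the gene marked in f/f alone. Abca2, an endosomal lipid transporter of the brain, showed the same kind of split. Its f/f peak chr2:25426370-25429332 was 2963 bp wide and contained the start, while KO had peaks of 712 and 696 bp there. The 696-bp peak began 63 bp past the annotated start. Coverage of the Abca2 locus was 13.3% in f/f against 9.65% in KO, a difference of -3.66 points that was the largest downward among the 48 genes. All 4 f/f peaks overlapped KO peaks, so the difference lay in peak width. The locus is touched by 5 other genes, and each of the 4 f/f peaks lay within 1000 bp of an end of Fut7, Paxx or Ptgds. The peak at Ptgds was 2844 bp wide in f/f against 1847 bp in KO. Within the Abca2 gene alone, without flanks, coverage was 3.68% in f/f against 3.49% in KO.

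Abca7, a phospholipid transporter of phagocytic cells, had the highest coverage of all ABC genes, 22.8% in f/f against 19.3% in KO. Its locus is crowded, with 5 other genes touching it. The difference of -3.48 points lay mainly in a peak at Arhgap45, the gene above it, which was 4077 bp wide in f/f against 2095 bp in KO. The peaks at the lower end of Abca7 were 3263 bp in f/f against 3101 bp in KO. With a fold of at least 3 the difference was -12.89 points. Abcg4, a sterol transporter known from brain and from megakaryocyte progenitors, was marked at a gene end in neither list. Its coverage was 11.5% in f/f against 16.2% in KO, the largest upward difference at 4.72 points but below 1.5-fold. The difference lay in a flank peak 13.3 kb from the gene in f/f, 1718 bp wide against 4571 bp in KO. Abcg4 had no peak in its own body in either list, and its difference was 0.19 points with 10 kb flanks and turned to -2.63 points with a fold of at least 3.

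Abcg5 and Abcg8 form the sterol pump of liver and gut and lie head to head. The Abcg5 locus had a coverage of 7.92% in f/f against 6.69% in KO, and the Abcg8 locus 1.79% and 1.52%. A peak inside Abcg8, chr17:84683510-84684833 in f/f (1324 bp) and chr17:84684056-84684801 in KO (746 bp), lay 0.499 kb from the Abcg5 end in f/f and 1.045 kb in KO. Abcg5 was therefore marked in f/f and lay outside the 1000 bp window in KO, although both lists held the peak. The difference of the Abcg5 locus, -1.23 points, turned to 3.03 points with peaks of -log10 q 5 or more. The Abcg5 promoter, chr17:84682962-84683261 (minus strand), was under a peak in neither list and is shown because it held the most GATAA among the promoters printed here.
Abcg5: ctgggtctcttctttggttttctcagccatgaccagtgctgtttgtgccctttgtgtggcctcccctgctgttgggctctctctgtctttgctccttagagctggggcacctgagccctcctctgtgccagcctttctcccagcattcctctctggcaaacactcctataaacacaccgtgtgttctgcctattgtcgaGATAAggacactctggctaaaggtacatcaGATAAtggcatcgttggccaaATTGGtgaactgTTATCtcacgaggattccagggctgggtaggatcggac
It held 3 GATAA, 1 CCAAT and 0 GGGCGG, with 52.3% G + C and 5 CpG.

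Abcb4, which flips phosphatidylcholine into bile, had a coverage of 2.76% in f/f against 1.53% in KO. Its start was marked in both lists, by peaks of 943 and 518 bp, of which the KO peak was lost with a -log10 q of at least 5. Abca3, which fills the surfactant bodies of the lung, had 5.31% and 5.43% and was marked in both, on a locus shared with Abca17. Abcd2 and Abcd3, which carry fatty acids into peroxisomes, were marked in both. Abcd2 had 7.65% in f/f against 8.52% in KO, and Abcd3 had 2.25% and 2.30%. Abca4, the retinoid flippase of photoreceptors, had 1.84% and 1.56%, all of it in the flanks. Abca12, which loads ceramides in skin, had 0% in both. The sign of the small differences of Abca3, Abca4, Abcd2 and Abcd3 turned under other thresholds or flanks, while Abca1, Abca2, Abca7, Abcb4 and Abcg1 had the lower coverage in KO under each threshold and flank run.

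The 3 mitochondrial members on these chromosomes, Abcb6, Abcb8 and Abcb10, were marked in both lists and had the higher coverage in KO, except for Abcb6 with 10 kb flanks. Abcb10, needed for haem synthesis in red cell precursors, had 6.53% in f/f against 8.39% in KO. Its upper end was marked by peaks of 3180 and 3256 bp, and KO had 2 further peaks inside the gene, one of them (743 bp, -log10 p of 11.1) above the KO median. Abcb6, a porphyrin transporter, had 6.73% and 8.77%. The added KO peak of 1244 bp there lay at Ankzf1, 17.7 kb above the gene, and with 10 kb flanks the difference turned to -1.01 points. Abcb8, which takes part in iron handling, had 12.8% and 14.2%, with a peak at its lower end of 1330 bp in f/f against 1764 bp in KO. The median difference of the 3 genes was 1.85 points. Of the 15 KO peaks over them 11 overlapped an f/f peak, 73.3% beside 77.3% of all KO peaks, and all 11 f/f peaks overlapped a KO peak, beside 83.9% of all f/f peaks.

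The soluble proteins of translation were all marked in both lists. Abce1, which splits ribosomes after termination, had 7.49% in f/f against 6.34% in KO. Its sign turned with a -log10 q of at least 5, with a fold of at least 3 and with 10 kb flanks. Abcf1, which acts in translation initiation, had 6.23% and 6.77%. Abcf2 had 8.56% and 9.04%, and Abcf3 had 3.94% and 5.68%. The Abcf3 difference of 1.74 points was 0.04 with 10 kb flanks, and it lay in a peak at Ap2m1 of 977 bp in f/f against 2064 bp in KO. The sign turned for Abcf1 with 50 kb flanks, and for Abcf2 with a fold of at least 3 and with 10 kb flanks. The widths of their 4 end peaks differed little, the widest gap being 1282 and 1488 bp at Abcf1.

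Among the 19 other members 7 were marked, the same number in each list and in both. Abcg3, an ABCG gene of rodents, had 2.05% in f/f against 4.21% in KO, a called difference of 2.15 points. Its end peak was 574 bp in f/f against 1320 bp in KO, and KO had 1 further peak inside the gene with a -log10 p of 2.92. The call ended, at 0.74 points, when the same number of peaks was taken from each list, with a fold of at least 3 and when -log10 q had to reach 5. Abca17 had 6.12% and 4.61%, a difference of -1.50 points that was -0.05 with 10 kb flanks. Over Abca5, Abca6, Abca8a, Abca8b and Abca9, a tandem cluster of chromosome 11, f/f had 6 peaks and KO 5, of which 4 in each overlapped. That is 66.7% and 80%, beside 83.9% of all f/f and 77.3% of all KO peaks. Abcb9, a lysosomal peptide transporter, had 12% and 10.7%, and Abcd4, needed for lysosomal cobalamin export, 1.98% and 2.46%, both marked in both lists. Abcc8 and Abcc9, the sulfonylurea receptors of potassium channels, were marked in neither list. Abcc8 had 5.91% and 7.34%, a sign that turned with a higher threshold, and Abcc9 had 1.28% and 1.31%. Abcb11, the bile salt export pump, had 0% in both.

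By subfamily, marks were present at every ABCD, ABCE and ABCF gene (3, 1 and 3 genes) in both lists. In ABCB 6 of 9 genes were marked in each list. In ABCA 7 of 16 were marked in f/f against 6 in KO, in ABCC 4 of 10 and 5, and in ABCG 3 of 6 and 2. The 3 ABCD and 3 ABCF genes had the higher coverage in KO, although the sign turned for 1 or more of them under every other threshold or flank, while ABCA genes had it in 3 of 16 and the lower in 10. Median differences were -0.37 points in ABCA, 0 in ABCB, 0.05 in ABCC, 0.47 in ABCD, 0.55 in ABCF and -0.33 in ABCG. Members are not independent here, since 5 groups of neighbours share bases and the 48 genes make up 38 loci.

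**Figure D3:**
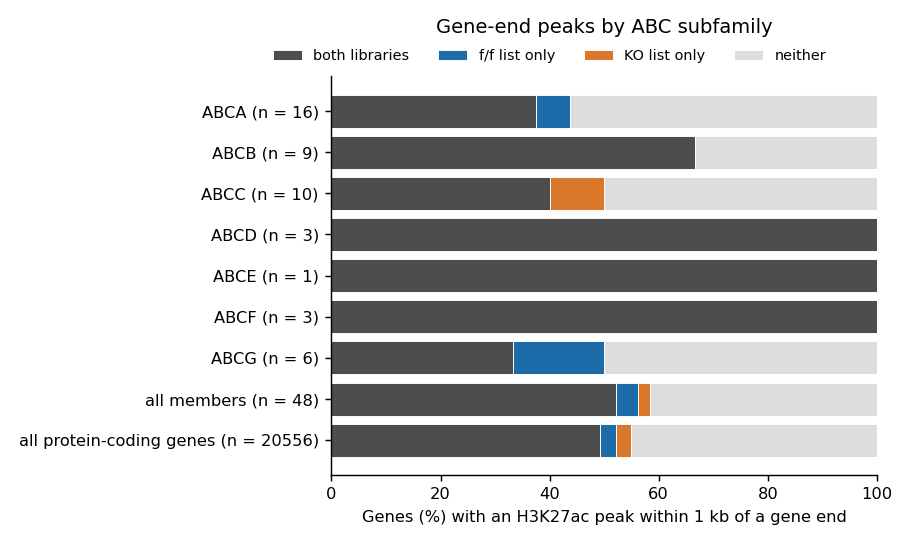
Share of genes (percent, x axis) with an H3K27ac peak within 1000 bp of a gene end in both libraries, in 1 list only (here without the 5000 bp condition, so that Abcg5 counts with Abca1) or in neither, for each ABC subfamily, all 48 members and all 20556 protein-coding genes. The ABCD, ABCE and ABCF bars are full, and the bar of all members stands near that of all genes.

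At the 25 gene ends marked in both lists, counting shared peaks once, the KO peak was the narrower at 16 and the wider at 9. Over all genes 52.8% of ends marked in both lists were narrower in KO, with a peak shared by neighbouring genes counted at each end. The median width was 1374 bp in f/f against 1320 bp in KO. The median KO to f/f ratio was 0.950, beside 0.994 over all genes, counted at each end in the same way. The ends farthest from equal width were those of Abca2, Abcg1 and Abcb4, narrower in KO, and Abcg3 and Abcb8, wider in KO. At Abca2 and Abcg1 the KO width leaves out a further KO peak of 712 and 580 bp. Each lay under the same f/f peak but outside the 1000 bp window.

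**Figure D4:**
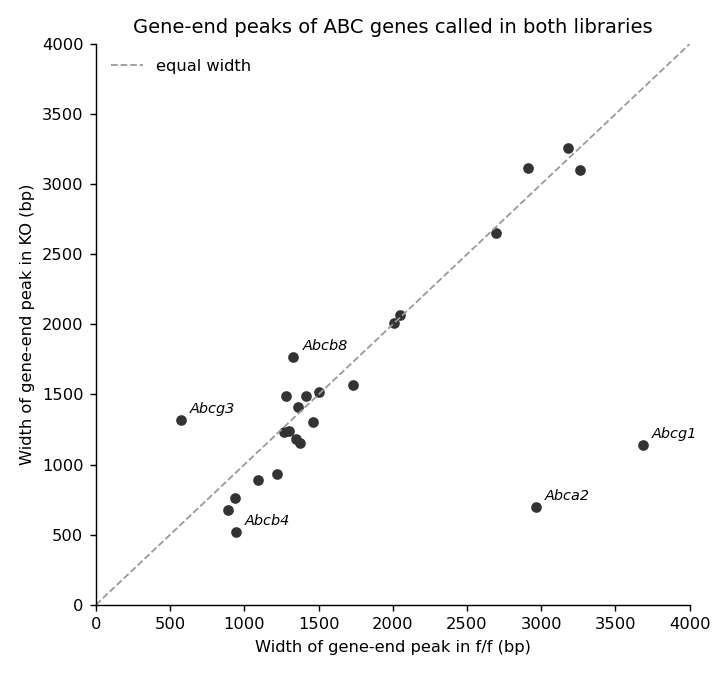
Width of the gene-end peak in f/f (bp, x axis) against KO (bp, y axis) for the 25 ABC gene ends marked in both libraries, with the dashed line at equal width. Most points lie along the line, while Abcg1 (3685 and 1141 bp) and Abca2 (2963 and 696 bp) lie far under it. For both, a further KO peak under the same f/f peak but outside the window (580 and 712 bp) is not counted.

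Over all member loci the f/f list had 153 peaks and the KO list 164. Of the f/f peaks 87.6% overlapped a KO peak, and of the KO peaks 82.9% overlapped an f/f peak, beside 83.9% and 77.3% of all peaks on these chromosomes. Of peaks at the members' ends, 27 of 29 in f/f and 25 of 26 in KO overlapped the other list. Of peaks inside members away from their ends, 75.9% did in f/f and 72.4% in KO. At the ends of other genes lay 37 of the f/f peaks and 40 of the KO peaks, so that the coverage of a locus includes peaks at neighbouring genes.

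Annotated starts were available for 38 of the 48 genes, with 45 promoter sequences. A promoter sequence was under a peak for 21 of the 38 genes in f/f, against 51.4% of all genes with an entry, and for 18 in KO, against 50.6%. It was under a peak in f/f only for 3 genes (Abca1, Abca2 and Abcg2), against 2.52% of all genes, and in KO only for 0, against 1.78%. Within 1000 bp of a start the counts were 24 in f/f (53.2% of all genes) and 21 in KO (52.6%), with Abca1, Abcg2 and Abcg5 in f/f only (2.49%) and 0 genes in KO only (1.90%). Abca2 was thus in the first group of 3 and Abcg5 in the second. Both had a KO peak just outside the window used. At Abca2 it began at 25428662, past the promoter window that ends at 25428648. At Abcg5 it lay 1.045 kb from the gene end. The f/f peaks over the Abca1 and Abcg2 starts were below their list's median -log10 p.

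Base composition was described by whether a promoter carried the mark. The 20 promoters under a peak in both lists had a median of 64.2% G + C and 23.5 CpG, and the 22 under no peak 50.7% and 6 CpG. The 3 promoters under a peak in f/f only had a median of 65.0%, within the range of the first group (53 to 76.3%). Over all promoters the medians were 62.0% (both), 59.7% (f/f only), 53.7% (KO only) and 48.7% (neither), so the promoters under no peak had the lowest median among the members and among all genes. GATAA, the core of GATA sites, was in 11 of the 45 member promoters, 24.4%, and in 25.4% of all promoters of the table, each 300 bases long. CCAAT was in 35.6% against 37.4%, TATAA in 26.7% against 24.9%, GGGCGG in 46.7% against 35.7% and TGANNNNGC, the core of the antioxidant response element, in 35.6% against 41.3%. Both strands were searched, and none of these motifs contains another.

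**Figure D5:**
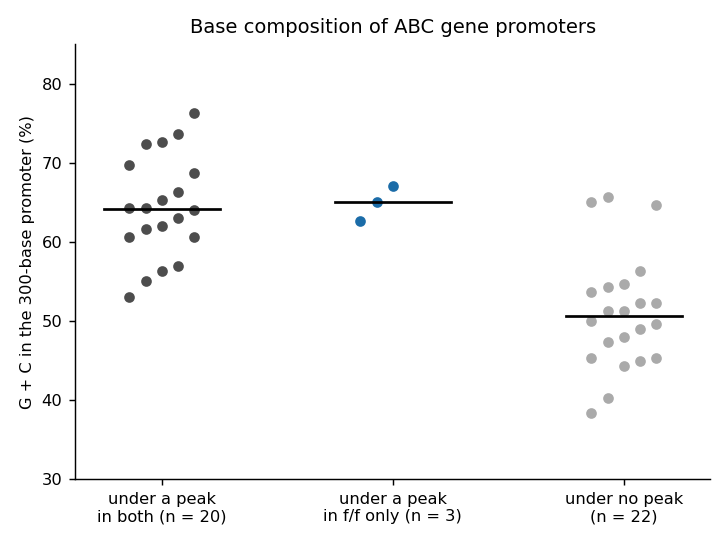
G + C content (percent, y axis) of the 45 ABC promoters of 300 bases by whether they lay under an H3K27ac peak in both libraries, in f/f only or in neither; points are promoters, offset sideways for display, and lines are medians. The promoters under a peak in both libraries have a median of 64.2%, those in f/f only 65.0% and those under no peak 50.7%.

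Related genes were described beside the family. Tap1 and Tap2, the ABC peptide pumps of antigen presentation, were marked in both lists, with coverages of 15.2% in f/f against 17.2% in KO for Tap1 and 14.0% and 13.8% for Tap2. Cftr, the ABC chloride channel, had 0% in both. The 14 genes of sterol control by LXR and SREBP, the nuclear receptor and the factor that set Abca1 and Abcg1 and cholesterol synthesis, were all marked in both lists. Their coverage was higher in KO for 10 and lower for 4, with a median difference of 1.26 points, computed with all deposited peaks only. Over the 10137 genes marked in both lists, coverage was higher in KO for 55.9% and lower for 44.0%, with a median difference of 0.15 points. Called higher in KO were 2 of the 14 sterol genes, against 6.29% of all genes. They were Rxra (5.50% in f/f against 8.97% in KO) and Nr1h3 (7.53% and 11.6%), the genes of the retinoid X receptor alpha and of LXR alpha. Of the 14 genes of NRF2 and glutathione conjugation, which supply the conjugates that ABCC pumps export, 11 were marked in f/f against 12 in KO. Without Gstp1, which lies in a chromosome start that holds no f/f peak, 11 of 13 were marked in each list, and coverage was higher in KO for 11 and lower for 2, with a median difference of 0.30 points. Of these 13 only Keap1, the NRF2 inhibitor, was called higher in KO (6.28% and 10.2%), against 6.29% of all genes. The calls in both lists of related genes were made with all deposited peaks only. Gstp1, a glutathione transferase, was listed at 0% in f/f against 11.7% in KO, a difference that cannot be told apart from that gap.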

How the data were processed

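The deposited broad peak lists of H3K27ac ChIP-seq in MA9 cells were used, 1 list per genotype as labelled. The submitters' processing notes name BWA, SAMtools, MACS2 and the build mm10. Which options and control were used is not given in the sources used here, and the depth is unknown. Each peak carries a score, a fold enrichment (a ratio), a -log10 p and a -log10 q, deposited by the authors. The deposited score was not used, and the fold and -log10 values served only to describe, rank or filter within 1 list. In either list the lowest -log10 q was 1.01.

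Gene positions, promoter starts and sequences came from RefSeq tables of GRCm38.p6, the build of mm10. Left out were 105 genes listed below 3 Mb of chromosomes 1 to 19, before the first mappable bases, as scaffold coordinates. Overlap needed 1 bp. Python 3.11.15 with numpy 2.4.6 and pandas 2.3.3 computed all values, bedtools 2.31.1 gave the same counts of marked genes (27 and 26), and the code was tested on simulated data.

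All 48 members could be named, with values for drug efflux and lipid genes, genes marked in 1 library alone and the 5 largest differences each way. Members, roles and lists were chosen with earlier results of these data known. The windows at annotated starts, the Abcg2 and Abcg5 promoters and the other members named were chosen after their values were seen. Alternatives were a -log10 q of at least 5, a fold of at least 3, equal numbers of peaks, gene-end windows of 500 or 2000 bp, 10 or 50 kb of flank, 1 gene per shared locus and genes outside blank chromosome starts.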

Additional observations from a re-analysis of the deposited data

How the results depend on the processing

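Of 70 recomputed values 52 stayed within 1.5 times the count given, or near the value given, and 18 moved. The values outside blank chromosome starts are among the 52 and were bound to stay, since 0 of the 48 genes lay in such starts. Values with 1 gene per shared locus or at annotated starts were taken over 38 genes and not 48. No paired analysis was possible because each genotype has 1 library, and no replicate could be left out. Genes marked in f/f alone, 1 as reported, were 2 with a -log10 q of at least 5 (Abcg1 and Abcb4, 1.99% of all genes). They were 4 with a fold of at least 3 (Abca7, Abcg1, Abca1 and Abcb4, 4.03% of all genes). When the other list had to be blank for 1000 bp only, they were 2 (Abca1 and Abcg5, 2.84% of all genes). Genes marked in KO alone, 1 as reported, were 0 when -log10 q had to reach 5 (1.27% of all genes). They were 0 with a fold of at least 3 (1.28% of all genes) and 2 with a 2000 bp window (Abcc3 and Abca14, 2.11% of all genes). Genes of higher coverage in KO numbered 12 with a fold of at least 3, where 28 were lower. Over all genes 42.1% were higher and 34.9% lower as reported, against 26.9% and 46.6% with a fold of at least 3 and 33.1% and 39.5% with a -log10 q of at least 5, so the direction of the split depends on the threshold. With a fold of at least 3, 7 members were called lower (Abca7, Abcg1, Abca2, Abcb4, Abcb9, Abcc6 and Abcg4; 10.1% of all genes) and 1 higher (Abcb8; 2.77%). With a -log10 q of at least 5, 2 were called lower (Abcg1 and Abcb4; 4.87%) and 1 higher (Abcg5; 4.07%). The median difference over the members was -0.17 points with 34272 peaks from each list, -0.26 with a fold of at least 3 and -0.022 with 10 kb flanks. That of the drug efflux genes was -0.49 with 10 kb and -0.095 with 50 kb flanks. That of the lipid genes was -0.11 with a -log10 q of at least 5, -0.78 with equal numbers of peaks and -1.06 with a fold of at least 3. It was -0.88 and -0.44 with 10 and 50 kb flanks, and -0.43 with 1 gene per shared locus. The medians of the drug efflux and of the lipid genes were both negative under every setting run. Windows at annotated starts, chosen after seeing the data, gave 24, 21 and 21 of 38 genes in f/f, KO and both. The cause of these shifts was not tested. Depth is unknown, so the differences that it allows could not be bounded.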

Other observations

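Of the 7 peaks over ABC loci that stood at or above their own list's median -log10 p and overlapped no peak of the other list, 1 was in f/f, at Rundc3b inside Abcb1a, and 6 were in KO. These are 0.654% and 3.66% of the peaks over the loci, beside 1.2% and 2.10% of all f/f and KO peaks on chromosomes 1 to 19. The medians differ (12.2 for f/f, 9.41 for KO), and with the f/f median as the limit for both lists 1 peak of each remained, the KO peak at Abcb6. The KO peaks lay inside Abcc5, Abcb10 and Abca9 (chr11:110147132-110148438, 1307 bp), at Ankzf1 above Abcb6, at Atg9b and Nos3 below Abcb8 (865 bp) and above Abcc8 (637 bp). None of them lay within 1000 bp of an end of an ABC gene.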
